A study of Mus musculus with 4 samples.

Results

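The receptors described here take up cytokines of the common gamma chain family and of the IL-6 and IL-10 families in CD4 cells of sanroque and wild type mice. They are encoded by a list of 10 genes, Il2ra, Il2rb, Il2rg, Il4ra, Il7r, Il21r, Il6ra, Il6st, Il10ra and Il10rb. Every probe set of the array that the platform annotation assigns to 1 of these genes alone was taken, whatever its signal. That gave 19 probe sets, of 22690 on the array, for 9 of the 10 genes. Il2rg, the common gamma chain itself, is not analysed here, because no probe set could be named for it.

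Receptors that use the common gamma chain pair it with a private chain, so that IL-2, IL-4, IL-7, IL-15 and IL-21 share a signalling subunit and differ in the chain that recognises them. The receptor for IL-6 pairs a binding chain, Il6ra, with gp130, the shared signalling chain encoded by Il6st. The IL-10 receptor, of Il10ra and Il10rb, belongs by structure to the class II receptors of the interferons, not to the gamma chain or IL-6 families. All of them signal through JAK kinases and STAT transcription factors, with SOCS proteins as feedback inhibitors. In helper T cells, IL-7 keeps naive and memory cells alive, IL-2 supports regulatory and effector cells, and IL-6 and IL-21 act in the differentiation of follicular helper cells.

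Total RNA of CD4 cells was measured on 4 Affymetrix MOE430A arrays, of which 2 held wild type (+/+) and 2 homozygous sanroque (san/san) RNA. Sanroque is a recessive mutation that arose after ENU mutagenesis of male C57BL/6 mice and came to light through antinuclear autoantibodies. Its gene, Rc3h1, encodes the RNA-binding protein Roquin-1 and is not analysed here. The labels give neither the age nor the sex of the mice sampled. They do not state either that the 2 arrays of 1 genotype came from different animals, so the p-values reflect array-to-array spread alone, possibly technical.

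Each number joins 1 array of each genotype, and the experiment information shows that both number 1 arrays were hybridised and scanned on 1 day and both number 2 arrays on another; these are called day 1 and day 2. The information for the number 1 arrays mentions sorted T cells. In the information for +/+ array 2 stand the unexplained letters CBA, the name of another mouse strain, so an effect of strain and one of genotype cannot be told apart. Trimmed mean signals were 99.99 on all 4 arrays. Across probe sets the arrays correlated with r of 0.9513 to 0.9689 on the log2 scale, and no pair was identical.

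None of 10 T cell genes, each taken by its brightest probe set, passed the test between genotypes. Cd4 had signals of 533.3 and 613.5 on the +/+ arrays and 585.9 and 570.2 on the san/san arrays (log2 fold change 0.01, limma adjusted p = 0.991). The other probe set of Cd4 had -0.24. Cd3e, a chain of the T cell receptor complex, had 0.07 (limma adjusted p = 0.957). The genotypes did not overlap for Cd247, the zeta chain of that complex, and Cd5, both named after their values were seen. Their log2 fold changes were -0.41 and -0.38 (unadjusted limma p of 0.0297 and 0.0446, adjusted 0.426 and 0.489). The 3 probe sets of Cd247 ranged from -0.62 to -0.41. Nor did the genotypes overlap for Cd3g, at -0.1 (limma adjusted p = 0.926), or Thy1, likewise named, at 0.27 (limma adjusted p = 0.686). Over all probe sets tested, 38.7% kept the genotypes apart. B cell genes were present on every array, with Cd79a at 231.3 and 244.1 in +/+ and 205.9 and 198 in san/san. Since these are RNA levels of a whole cell preparation, fewer cells of a type and less RNA per cell cannot be told apart in any result that follows.

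No receptor probe set passed the test between genotypes, by limma with p-values adjusted by Benjamini-Hochberg across the 13585 probe sets bright enough to test, of which 1.06% passed. Of the 19 receptor probe sets 16 were tested, for 9 genes, and their adjusted p ranged from 0.114 to 0.981. At an unadjusted p under 0.05 there were 3, both probe sets of Il2rb and 1 of Il2ra, all 3 higher in san/san, against 9.89% of all probe sets and 5.62% as higher. The same 3 passed at an adjusted p under 0.05 when the hybridisation day entered the fit as a block, where 6.27% of all probe sets passed and 3.58% passed as higher. The block leaves 1 residual degree of freedom for each probe set, so its p-values rest mostly on spread that limma takes from all others.

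The receptors nevertheless differed in how their arrays lay. In 8 of the 16 tested both san/san arrays read above both +/+ arrays, against 20.9% of all probe sets tested, and in 3 both read below, against 17.7%. In the other 5 the genotypes overlapped, while 38.7% of all probe sets tested kept them apart in 1 direction or the other. The log2 fold change was above 0 for 12 of 16, against 52.1% of all probe sets, and its median was 0.229 over the receptors and 0.015 over all probe sets tested. In 13 of 16 the sign was the same on both days, against 61.8% of all probe sets tested. Probe sets of 1 gene share their RNA and are not independent of each other.

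**Figure D1:**
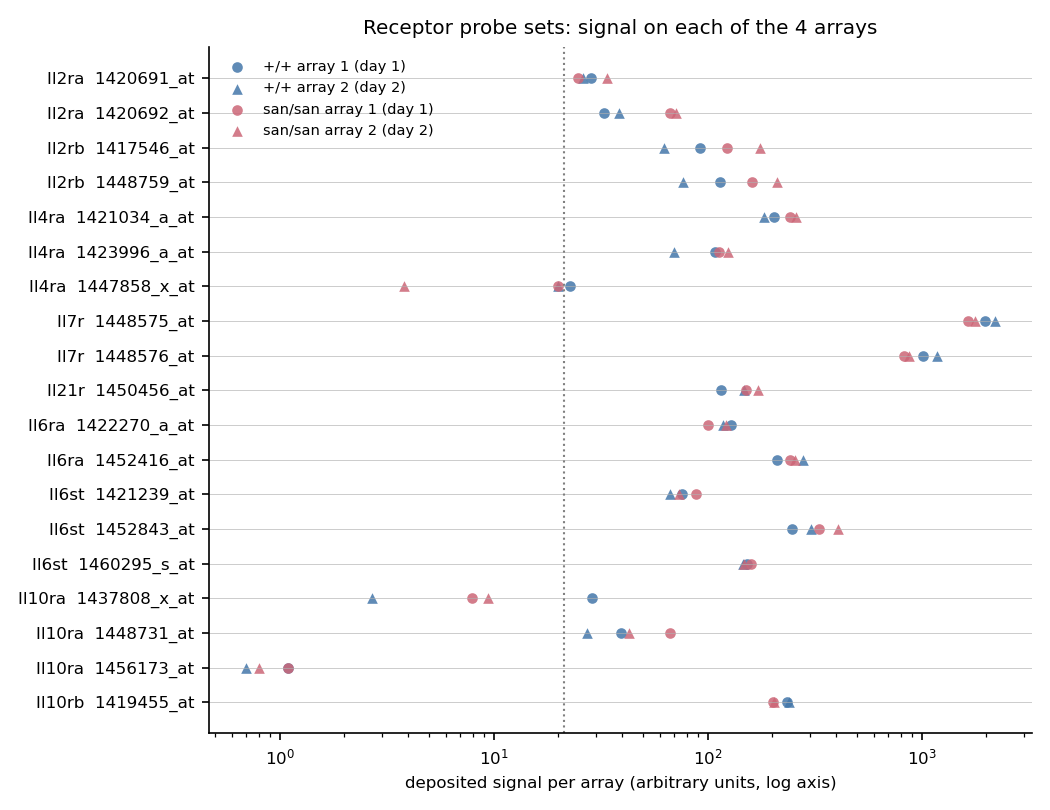
Deposited signal of each of the 19 receptor probe sets (rows) on each of the 4 arrays, on a log axis; colour gives the genotype, circles day 1 and triangles day 2, and the dotted line the filter at a mean of 21.3. The san/san points lie to the right of the +/+ points for both Il2rb probe sets and to the left for both Il7r probe sets, and the 3 probe sets of Il4ra and Il10ra with means under the line were not tested.

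Il2rb encodes the beta chain that the receptors for IL-2 and IL-15 share and through which both signal. One of its probe sets, 1448759_at, read 113.7 and 76.4 on +/+ arrays 1 and 2 and 160.9 and 211.7 on san/san arrays 1 and 2. The other, 1417546_at, read 92.5 and 62.8 in +/+ and 123.8 and 174.8 in san/san. Both probe sets gave the same order of the 4 arrays, with +/+ array 2 lowest and san/san array 2 highest, and the genotypes did not overlap.

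The mean of 1448759_at was 95.05 ± 26.4 in +/+ and 186.3 ± 35.9 in san/san (SD, n = 2 each), a difference of 96% of the +/+ mean. Its log2 fold change was 0.94 (95% interval 0.42 to 1.46), and it did not pass the limma test (adjusted p = 0.114) but did with the day as a block (0.00134). For 1417546_at the log2 fold change was 0.90 (95% interval 0.35 to 1.44; limma adjusted p = 0.161, 0.00381 with the block). The size differed between the days. The difference on the log2 scale was 0.48 on day 1 and 1.40 on day 2 for 1448759_at, and 0.40 and 1.39 for 1417546_at. Without +/+ array 1 the log2 fold changes were 1.21 and 1.15. The only +/+ array left there was array 2, the one with the letters CBA. Without +/+ array 2 the log2 fold changes were 0.67 and 0.64, and without san/san array 2 they were 0.75 and 0.66.

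Il2ra encodes CD25, the alpha chain that gives the IL-2 receptor its high affinity and that regulatory T cells and freshly activated T cells carry. Its probe set 1420692_at read 32.8 and 38.5 in +/+ and 66.8 and 71.3 in san/san. All 4 values were low, and the genotypes lay well apart, with the log2 difference at 0.91 on day 1 and 0.80 on day 2. On the log2 scale the fold change was 0.85 (95% interval 0.28 to 1.43), which did not pass the limma test (adjusted p = 0.227) and did with the block (0.02). The second probe set, 1420691_at, did not share this difference, with 28.5 and 26.2 in +/+ and 24.9 and 33.8 in san/san. There the genotypes overlapped and the log2 fold change was 0.07 (95% interval -0.74 to 0.89; limma adjusted p = 0.979), with its sign turned under quantile normalization (-0.06) and median centring of the arrays (-0.02). The difference in Il2ra was thus seen by 1 of its 2 probe sets.

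Without the block, a minority of the markers of regulatory T cells passed the limma test as higher in san/san. Of 9 such genes with a probe set, leaving out Il2ra, 8 were tested and 2 rose, Nrp1 and Izumo1r, against 0.776% of all genes. When the day was a block 5 rose, with Ctla4, Itgae and Gpr83 added, against 3.90%; these 5 are named after their values were seen. Their summed signal was 1479 and 1424 in +/+ and 2242 and 2324 in san/san. The lineage factor Foxp3 read 39.4 and 41.9 in +/+ and 55.5 and 79.3 in san/san (log2 fold change 0.64, limma adjusted p = 0.468), and Ikzf2 lay below the filter. Tnfrsf18, named after its values were seen, had -0.02 (limma adjusted p = 0.985). Genes of CD8 T or NK cells, which also carry the beta chain, summed to 709.7 and 632.8 in +/+ and 718.9 and 791.7 in san/san over 10 genes. Of these 1 rose, against 0.776% of all genes, the granzyme gene Gzmk, named after its values were seen. With the block 2 rose, against 3.90%, Gzmk and Nkg7, the latter at 0.79 on the log2 scale (block limma adjusted p = 0.00514) and likewise named. Cd8a read 50.1 and 46.6 in +/+ and 68.3 and 54.5 in san/san. None of the genes of either list was at 0 on any array. The part of these cells in the receptor values was not tested.

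Promoters of Il2ra and Il7r are shown because these receptors lay on opposite sides, Il2ra by 1 probe set above and Il7r by both below +/+. The sequences are those of RefSeq, build GRCm38.p6, from 250 bases before to 50 after the annotated start of the gene, in the direction of transcription. That of Il2ra is chr2:11642542-11642841 on the plus strand and that of Il7r chr15:9529827-9530126 on the minus strand. Capitals mark matches to the motifs described next.
Il2ra: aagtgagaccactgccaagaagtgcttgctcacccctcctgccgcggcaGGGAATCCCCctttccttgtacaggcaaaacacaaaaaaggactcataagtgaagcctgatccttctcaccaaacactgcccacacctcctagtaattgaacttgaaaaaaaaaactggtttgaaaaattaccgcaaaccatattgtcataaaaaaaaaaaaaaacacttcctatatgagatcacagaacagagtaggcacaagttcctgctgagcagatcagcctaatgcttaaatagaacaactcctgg
Il7r: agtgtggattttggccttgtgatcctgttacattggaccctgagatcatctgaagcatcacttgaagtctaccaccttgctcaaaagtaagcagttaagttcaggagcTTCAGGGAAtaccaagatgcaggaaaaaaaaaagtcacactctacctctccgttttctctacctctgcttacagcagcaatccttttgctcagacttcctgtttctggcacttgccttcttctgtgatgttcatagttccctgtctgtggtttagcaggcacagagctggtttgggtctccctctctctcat

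The table held promoters of 7 of the 10 receptor genes, those of Il2ra, Il2rg, Il4ra, Il7r, Il21r, Il6ra and Il6st. Both strands were searched for 4 motifs. The STAT dimer motif TTCNNNGAA was found in 1 of 7, that of Il7r, from base -142 to -134 before the start, and in 8.30% of all 32851 promoters. The NF-kB motif GGGANNNNCC was found in 3 of 7, with the match GGGAATCCCC in Il2ra from base -201 to -192, and in 20.7% of all promoters. The STAT6 motif TTCNNNNGAA and the AP-1 motif TGANTCA were in 0 of 7, against 6.95% and 7.81%. None of the 7 promoters held matches to more than 1 motif, so an overlap of motifs could not arise. The share of G and C ran from 42.7% in Il2ra and 45.7% in Il7r through 50.3% in Il2rg and 56% in Il21r to 62% in Il4ra, 66% in Il6ra and 68.3% in Il6st, around a median of 52.7% over all promoters.

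Il7r encodes the alpha chain of the IL-7 receptor, a survival receptor of resting T cells that is lowered on activation. Its probe set 1448575_at read 1974 and 2193 in +/+ and 1645.2 and 1779 in san/san. The other, 1448576_at, read 1010.3 and 1179 in +/+ and 831.1 and 875 in san/san. Both probe sets placed both san/san arrays below both +/+ arrays. The mean of 1448575_at was 2084 ± 155 in +/+ and 1712 ± 94.6 in san/san (SD, n = 2 each), or -0.28 on the log2 scale (95% interval -0.67 to 0.11; limma adjusted p = 0.686, 0.258 with the block). That of 1448576_at was -0.35 (95% interval -0.74 to 0.03; limma adjusted p = 0.557, 0.139 with the block). Neither passed, although the 4 differences within days had 1 sign, from -0.26 to -0.43. The intervals reach no lower than -0.74 on the log2 scale.

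Markers of naive T cells, as a sum, lay lower along with Il7r. Of 5 with a probe set 1 fell, Lef1, against 0.331% of all genes, and with the block Ccr7 fell too, 2 in all, against 2.14%. Their summed signal was 5139 and 4991 in +/+ and 3925 and 4046 in san/san. The transcription factor Lef1 read 516.5 and 674.1 in +/+ and 247.4 and 298.3 in san/san. Ccr7, the receptor for entry into lymph nodes, read 1056.1 and 1205.8 in +/+ and 744.9 and 888.6 in san/san (log2 fold change -0.47, limma adjusted p = 0.4, 0.0375 with the block). The part of the share of naive cells in the Il7r values was not tested.

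Il4ra encodes the IL-4 binding chain, which also serves in the IL-13 receptor. Its brightest probe set, 1421034_a_at, read 205.4 and 183.1 in +/+ and 241.6 and 260.1 in san/san. The genotypes did not overlap, with means of 194.2 ± 15.8 and 250.9 ± 13.1 (SD, n = 2 each). The log2 fold change was 0.36 (95% interval -0.03 to 0.75; limma adjusted p = 0.562, 0.197 with the block). The second, 1423996_a_at, read 108.1 and 69.6 in +/+ and 113.3 and 124.2 in san/san, and its log2 fold change of 0.42 was 0.06 on day 1 and 0.78 on day 2. Here +/+ array 2 alone stood apart, and without it the log2 fold change was 0.13. The remaining probe set, 1447858_x_at, whose suffix marks probes that can bind other transcripts, had a mean of 16.6 over the arrays and was not tested. It read 22.8 and 19.9 in +/+ and 20 and 3.8 in san/san.

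Il21r encodes the private chain of the IL-21 receptor. Its single probe set, 1450456_at, read 115.8 and 147.5 in +/+ and 150.9 and 172 in san/san. The genotypes did not overlap, but +/+ array 2 and san/san array 1 were nearly equal. The log2 fold change was 0.29 (95% interval -0.15 to 0.73; limma adjusted p = 0.728, 0.368 with the block), with 0.37 on day 1 and 0.21 on day 2. In the RefSeq table the starts of Il4ra and Il21r lie 51158 bases apart on chromosome 7, on the same strand. The tested probe sets of both receptors had differences above 0, as did 52.1% of all probe sets tested, and none of them passed.

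**Figure D2:**
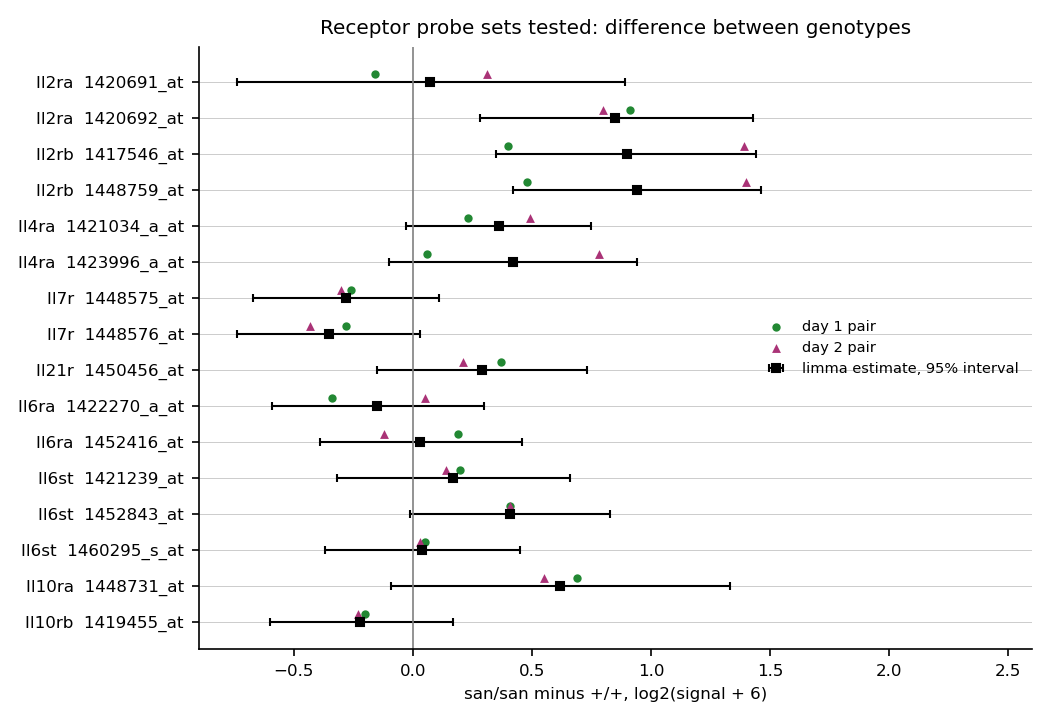
Difference of san/san from +/+ on the log2(signal + 6) scale for the 16 receptor probe sets tested; squares are the limma estimates with 95% intervals, and green circles and purple triangles the differences within day 1 and within day 2. The intervals of 3 probe sets, both of Il2rb and 1420692_at of Il2ra, lie above 0 before adjustment, and the day 1 and day 2 points are far apart for Il2rb.

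Il6st, which encodes gp130, was measured by 3 probe sets that did not give 1 answer. The brightest, 1452843_at, read 247.7 and 304.6 in +/+ and 332.2 and 406.7 in san/san. All 4 values were ordered by genotype, and the log2 difference was 0.41 on both days. The log2 fold change of 0.41 (95% interval -0.01 to 0.83) did not pass (limma adjusted p = 0.516, 0.103 with the block). The probe set 1460295_s_at, whose suffix marks probes shared with other transcripts, read 153.1 and 145.7 in +/+ and 159 and 148.7 in san/san. These values were level, with a log2 fold change of 0.04 (95% interval -0.37 to 0.45), which median centring of the arrays turned to -0.05. The third, 1421239_at, read 76.1 and 66.5 in +/+ and 88.2 and 73.8 in san/san, with a log2 fold change of 0.17 (95% interval -0.32 to 0.66; limma adjusted p = 0.897).

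Il6ra encodes the chain that binds IL-6, and neither of its probe sets separated the genotypes. The brighter, 1452416_at, read 211.6 and 280.5 in +/+ and 241.7 and 256.9 in san/san, and both san/san values lay between the +/+ values. Its log2 fold change was 0.03 (95% interval -0.39 to 0.46; limma adjusted p = 0.981), or -0.06 after median centring of the arrays. The other, 1422270_a_at, read 129.2 and 118.1 in +/+ and 100.8 and 122.2 in san/san, with a log2 fold change of -0.15 (95% interval -0.59 to 0.30; limma adjusted p = 0.902). Its sign differed between the days, at -0.34 on day 1 and 0.05 on day 2. The intervals of both probe sets leave room for differences of up to 0.59 in size, so the values do not show that Il6ra was equal in the genotypes.

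Il10ra encodes the chain that binds IL-10, and 1 of its 3 probe sets was bright enough to test. That probe set, 1448731_at, read 39.3 and 27.3 in +/+ and 67 and 42.9 in san/san. The arrays did not overlap between genotypes, but day 1 was higher than day 2 in both. Its estimate was 0.62 on the log2 scale (95% interval -0.09 to 1.33; limma adjusted p = 0.587, 0.15 with the block), with 0.69 on day 1 and 0.55 on day 2. The probe set 1437808_x_at read 28.9 and 2.7 in +/+ and 7.9 and 9.4 in san/san, and 1456173_at read 0.7 to 1.1 on all 4 arrays. Without the filter their limma adjusted p were 0.977 and 0.997.

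Il10rb encodes the second chain of the IL-10 receptor, which receptors for IL-22 and the lambda interferons also use. Its probe set, 1419455_at, read 233.9 and 240.6 in +/+ and 202.2 and 204.3 in san/san. The arrays of a genotype agreed closely and the genotypes did not overlap, with means of 237.2 ± 4.74 and 203.2 ± 1.48 (SD, n = 2 each). This gave a log2 fold change of -0.22 (95% interval -0.60 to 0.17; limma adjusted p = 0.78, 0.501 with the block). The interval is wide beside these SDs because limma takes the spread of a probe set in part from all others.

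Myeloid cells carry Il6ra, Il10ra and Il4ra too, and some of their genes were higher in san/san. Of 14 genes of monocytes, macrophages and neutrophils 13 were tested and 4 rose, Ngp, Lyz2, S100a8 and S100a9, the last named after its values were seen, against 0.776% of all genes. The other 9 did not pass, and 7 rose with the block, against 3.90%. Their summed signal was 1557 and 1722 in +/+ and 3193 and 3222 in san/san. The neutrophil granule gene Ngp read 39.3 and 36.1 in +/+ and 186.7 and 203.6 in san/san. Csf1r, the receptor that marks the monocyte line, read 363.2 and 461.4 against 584.8 and 574.8 (log2 fold change 0.50, limma adjusted p = 0.369, 0.0389 with the block). The 3 probe sets of Csf1r ranged from 0.05 to 0.50. Itgam lay below the filter, and no gene of the list was at 0 on any array. B cell genes, whose cells express Il4ra, Il21r and Il10ra, summed to 1681 and 1782 in +/+ and 1695 and 1835 in san/san over 10 genes. Of the 9 tested none passed the limma test, and 1, Cr2, had an unadjusted limma p under 0.05 and is named after its values were seen. Cr2 alone fell with the block, against 2.14% of all genes. The part of these cells in the receptor values was not tested.

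The remaining marker lists were counted in the same way. Of activated or memory T cell genes 5 of 8 tested rose, of follicular helper genes 5 of 8 and of proliferation genes 5 of 6, against 0.776% of all genes. With the block 7, 6 and 6 rose, against 3.90%. Of 10 T cell genes, 4 plasma cell, 2 dendritic cell and 4 red cell or platelet genes none passed the limma test, and 2, 1, 0 and 2 of them had an unadjusted p under 0.05. With the block 2 red cell genes rose, Alas2 and Slc4a1, named after their values were seen. An unadjusted limma p under 0.05 was found for 7 of 8 activated or memory, 7 of 8 follicular helper and 6 of 6 proliferation genes. The same held for 6 of 8 regulatory T cell, 3 of 5 naive, 7 of 13 myeloid and 2 of 10 CD8 T or NK genes. Over all probe sets tested the share was 9.89%.

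**Figure D3:**
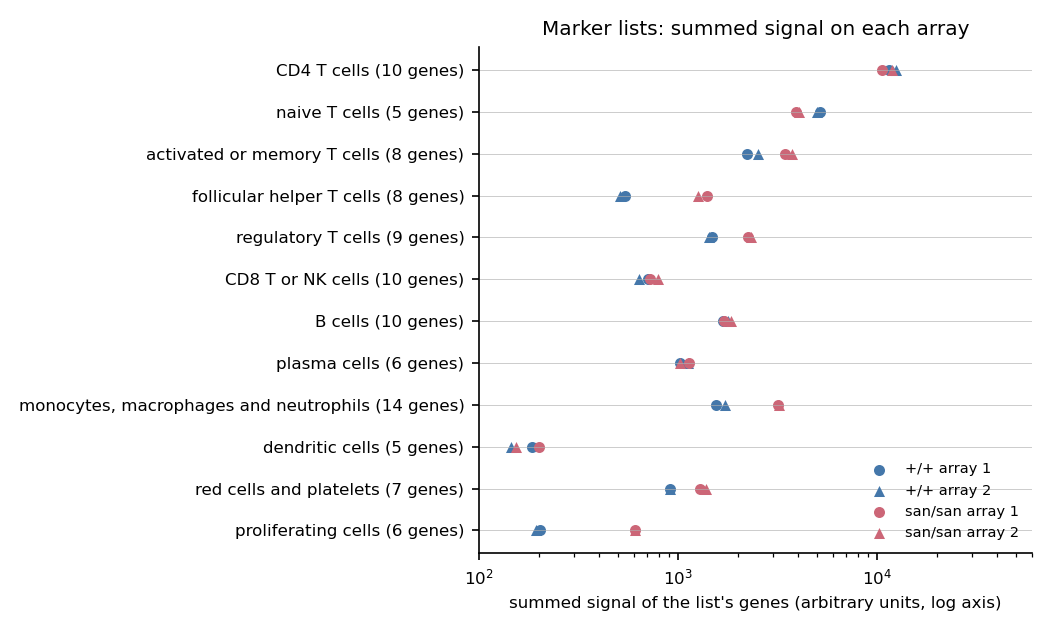
Summed signal of the marker lists (rows, with the number of genes measured) on each of the 4 arrays, on a log axis; each gene counts by its brightest probe set. The lists of regulatory T cells and of monocytes, macrophages and neutrophils lie higher on both san/san arrays. So do those of activated or memory T cells, follicular helper T cells, proliferating cells, and red cells and platelets. The list of CD8 T or NK cells lies higher by a narrow margin. The naive T cell list lies lower, and the CD4 T cell, B cell, plasma cell and dendritic cell lists overlap.

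Elsewhere in the pathway, 4 of 58 tested genes passed, Il21, Jak3, Socs3 and Junb, against 1.11% of all 7864 genes by their brightest probe set. Of the 6 lists, written by role from general knowledge, 90 genes in all, 78 had a probe set, and 3 rose and 1 fell. Under the block for day 11 rose and 4 fell, against 6.04% of all genes called. An unadjusted limma p under 0.05 was found for 6 of 10 tested kinases and STAT factors, 6 of 17 inhibitors and 6 of 13 STAT target genes. It was also found for 1 of 5 ligands, against 9.89% of all probe sets tested. The median log2 fold change was 0.10 over the 58 and 0.03 over all genes.

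Most ligands were too dim to test. Of 17 with a probe set 5 were tested and 1 rose, against 0.776% of all genes. This was Il21, the ligand of Il21r, which rose from 16.1 and 13.4 in +/+ to 78.9 and 56.8 in san/san, a log2 fold change of 1.82 (limma adjusted p = 0.0308). This call was lost when dim probe sets were kept (0.168), when the variance trend was dropped (0.0511) and without san/san array 1 (0.259) or 2 (0.0653). The ligands that bind the private chains of the other receptors stayed below the filter. Il2 read 1.6 to 10.7 over the 4 arrays, Il4 8.2 to 30.6, Il7 4.1 to 14.9, Il15 6.8 to 14.1, Il6 7.2 to 11 and Il10 9.8 to 21.9. At these low signals both san/san arrays read above both +/+ arrays for Il2, Il4 and Il6. They read below for Il7 and Il15, and the genotypes overlapped for Il10. These differences were not tested in the main fit. Of the IL-6 family, Clcf1 was tested, with a log2 fold change of -0.43 (limma adjusted p = 0.632), as was Ebi3, named after its values were seen, with 0.22 (0.937). Il24, of the IL-10 family, had -0.59 (limma adjusted p = 0.763).

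Among the kinases and STAT factors 1 of 10 rose, against 0.776% of all genes. Under the block 5 did, Jak3, Stat2, Stat3, Stat4 and Stat5a, against 3.90%. Jak3, the kinase that binds the common gamma chain, read 141.3 and 122.7 in +/+ and 251.6 and 285 in san/san. The genotypes were far apart on both days, and Jak3 rose by 0.99 on the log2 scale (standard error 0.186, limma adjusted p = 0.0307). It failed the test after median centring of the arrays (0.167), when dim probe sets were kept (0.0872), when the variance trend was dropped (0.21), and without +/+ array 2 (0.072) or san/san array 2 (0.148). Jak1 is the partner of Jak3 on the private chains and also acts on gp130. Jak1 had 0.07 (limma adjusted p = 0.954), and -0.02 after median centring, and its probe sets ranged from -0.34 to 0.47.

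No STAT factor passed the limma test without the block. Stat5a, which follows IL-2 and IL-7, read 113.3 and 97.8 in +/+ and 157.3 and 173.1 in san/san (log2 fold change 0.62, limma adjusted p = 0.245, 0.0248 with the block), while its other probe set had 0.09. Stat5b, named after its values were seen, overlapped between genotypes, with 0.26 (limma adjusted p = 0.752). Stat3, which follows IL-6, IL-10 and IL-21 and is named after its values were seen, read 433.9 and 585.4 in +/+ and 679.9 and 726.9 in san/san (0.48, limma adjusted p = 0.428, 0.045 with the block), and its probe sets ranged from 0.10 to 0.67. Stat4, known from the IL-12 pathway, had 1.09 (limma adjusted p = 0.0582, 5.31e-05 with the block), and it passed without +/+ array 2, with 1.45 (0.000746), and with the filter at the 60th percentile (0.0485). It did not pass by limma without +/+ array 1, with 0.74 (0.0891), without the filter (0.201) or without the variance trend (0.306). Stat2, a factor of the interferon receptors, had 0.67 (limma adjusted p = 0.363, 0.0472 with the block), and 0.44 without +/+ array 2. Stat6, which follows IL-4 and is named after its values were seen, read 369.4 and 347.3 in +/+ and 290.5 and 316.1 in san/san, a log2 fold change of -0.24 (limma adjusted p = 0.744, 0.425 with the block).

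Of 17 inhibitors of the signal 1 rose and none fell, against 0.776% and 0.331% of all genes. Under the block 2 rose, Socs3 and Ptpn11, against 3.90%. Another 2 fell, Ptpn6 and, named after its values were seen, Ptpn2, against 2.14%. Socs3, which binds gp130 and is induced by STAT3, read 234.8 and 247.3 in +/+ and 562.6 and 701.6 in san/san. Its log2 fold change was 1.36 (standard error 0.181, limma adjusted p = 0.0044), its 3 probe sets gave 1.17 to 1.36, and the call was lost without the variance trend (0.102). Cish, the SOCS relative that STAT5 induces and that is named after its values were seen, overlapped between genotypes, with 159.2 and 121.5 in +/+ and 187.9 and 156.9 in san/san. Socs2 had 0.59 (limma adjusted p = 0.62). The phosphatase genes went both ways. Ptpn6 had -0.75 (limma adjusted p = 0.236, 0.00244 with the block), and by limma -1.12 (0.0381) without san/san array 2 but -0.38 (0.954) without san/san array 1. Ptpn11, whose product also carries signals of gp130 forward, had 0.66 (limma adjusted p = 0.255, 0.00516 with the block), and by limma 0.91 (0.0477) without +/+ array 2 but 0.41 (0.514) without +/+ array 1. Their other probe sets had smaller differences, of -0.06 and 0.17.

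Among 13 tested target genes of STAT factors 1 fell and none rose, against 0.331% and 0.776% of all genes. Under the block 3 rose, Batf, Pim2 and Bcl3, against 3.90%. Another 2 fell, Junb and, named after its values were seen, Myc, against 2.14%. Junb, an AP-1 subunit that many stimuli besides cytokines induce, fell by 2.76 on the log2 scale, from 923.6 and 1263 in +/+ to 144.1 and 166.1 in san/san (limma adjusted p = 3.43e-05). It passed under all 12 alternatives. Batf, an AP-1 factor, had 0.77 (limma adjusted p = 0.143, 0.00216 with the block) and Pim2, a survival kinase, 0.74 (limma adjusted p = 0.15, 0.00381 with the block). Bcl3, a regulator of NF-kB, had 0.77 (limma adjusted p = 0.38, 0.0284 with the block) and by limma 1.20 (0.0126) without +/+ array 1 but 0.34 (0.953) without +/+ array 2.

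None of 8 tested further receptors of the same families passed the limma test, with or without the block, 0 had an unadjusted p under 0.05, and their median log2 fold change was 0.05. Crlf2, a chain of the TSLP receptor, read 182.8 and 256.5 in +/+ and 282.4 and 272.4 in san/san (log2 fold change 0.35, limma adjusted p = 0.646). Lifr, the LIF receptor that pairs with gp130, had 0.39 (limma adjusted p = 0.833). Ifngr2, a class II chain, had -0.35 by its brightest probe set and 0.40 by the other. Of 5 tested adaptors and sheddases none passed either (0 at an unadjusted p under 0.05 by limma), and Adam17, the protease that sheds the IL-6 receptor, had 0.36 (limma adjusted p = 0.602) and -0.03 by another probe set.

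**Figure D4:**
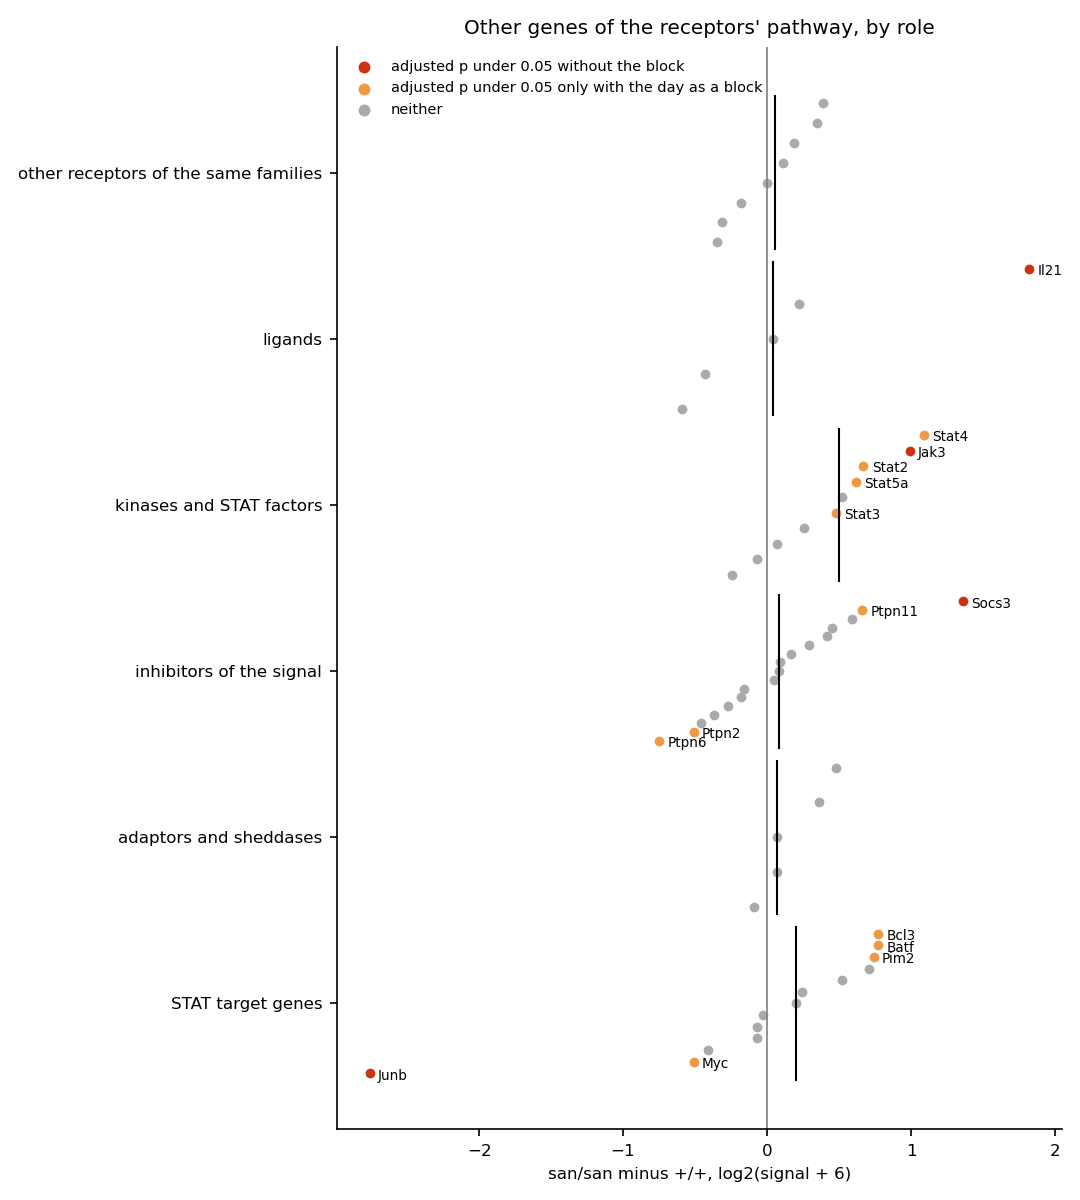
Difference of san/san from +/+ on the log2(signal + 6) scale for the 58 tested genes of the pathway lists, each by its brightest probe set and grouped by role; red points passed the limma test, orange points passed it with the day as a block alone, and black lines are medians. Il21, Jak3 and Socs3 stand at the right and Junb, at -2.76, at the left.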

How the data were processed

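The deposited values are linear intensity signals, 1 for each probe set on each array, scaled by the authors to a common trimmed mean; how the probes were summarised is not given in the sources used here. Gene names came from the platform annotation, in which 20380 probe sets apart from 64 controls had 1 symbol, 691 had several and 1555 others had none; all 9 genes measured matched RefSeq's gene table.

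All tests used log2(signal + 6), with 6 as the 20th percentile of the table, rounded; this understates changes of dim probe sets. Controls and probe sets with a mean under the 40th percentile (21.3) were left out. The remaining 13585 were fitted with limma 3.58.1 (R 4.3.3; lmFit, eBayes with a variance trend), two-sided, with Benjamini-Hochberg adjustment and a threshold of 0.05. The number of arrays limits precision. The main fit had no block. Replicate numbers pair the arrays by day. Across the probe sets tested, deviations from the genotype means correlated with 0.391 between the 2 arrays of a day. With 2 arrays of each genotype, both days give this same value by construction. Limma was also run on 10 simulated sets, each of 13585 probe sets with 200 changed. Log2 changes of 0.5, 1 and 2 were recovered in 0.597%, 25.2% and 78.5% of cases, and the share of false calls was 5.99%. Under the block the recovery was 1.34%, 29.7% and 80%, and the false share 12.5%. The simulated noise was independent between arrays and held no day effect, unlike the correlation of 0.391 above. The simulated block figures therefore do not show how the block performs on the real arrays.

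The receptors and all gene lists were chosen with earlier results of these data known. Named were all receptor probe sets, their ligands, Jak1 and Jak3, markers fixed in a list, and in each pathway list the genes past the test plus up to 3 others with the largest change whose genotypes did not overlap. Alternatives were quantile normalization, median centring, a pseudocount of 1 or 24, the block, no variance trend, no filter or one at the 60th percentile, each array left out, and, for the pathway lists, averaged probe sets per gene.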

Additional observations from a re-analysis of the deposited data

How the results depend on the processing

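With the replicate number as a block, which pairs the arrays by day, 852 probe sets passed in place of 144, 3 receptor probe sets in place of 0, and 15 pathway genes in place of 4. Without the filter the counts were 56 probe sets and 2 pathway genes, and without the variance trend 45 and 1; no receptor passed in either. Leaving out 1 array at a time gave 109 to 360 probe sets, 0 to 2 receptor probe sets and 3 to 5 pathway genes, the highest of the first and second without +/+ array 1. The cause was not tested. A lone array is there assumed to vary like the other genotype. Without +/+ array 1 the lone +/+ array is the one with the letters CBA. The other settings left all counts within 1.5 times the main ones.

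Signs turned only where the main value was near 0. Il2ra 1420691_at had -0.06 under quantile normalization, -0.02 with each array centred on its median, and -0.11 to 0.26 with 1 array left out. With median centring Il6ra 1452416_at had -0.06, Il6st 1460295_s_at -0.05 and Jak1 -0.02, and with 1 array left out they had -0.17 to 0.23, -0.01 to 0.09, and -0.0038 to 0.15. Median centring moved the median of all probe sets from 0.015 to -0.074. For 4 arrays, changes near 0.5 on the log2 scale are mostly beyond reach of the test, and dim probe sets, Il2ra and Il10ra among them, lie closest to the low end of the table.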
